A study of Mus musculus with 6 samples.

Results

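The genes described here are 10 early response transcription factor genes, *Fos*, *Fosb*, *Fosl2*, *Jun*, *Junb*, *Jund*, *Egr1*, *Egr2*, *Egr3* and *Atf3*, taken by name from the 39179 mouse genes of the deposited count tables. The data were bulk mRNA counts from bone marrow of 6 littermate mice, in which the study asked what the human homeobox gene *CDX2* does when it is switched on in blood-forming cells. The 3 *MxCDX2* mice (*RsCDX2::Mx1Cre*) carried human *CDX2* at *Rosa26* behind a loxP-flanked stop together with a Cre recombinase driven by the interferon-inducible *Mx1* promoter. The 3 controls were genetically unlike each other, being 1 *RsCDX2* mouse without Cre, 1 *Mx1Cre* mouse without the knockin, and a wild-type mouse. Every mouse of both groups was given 3 intraperitoneal injections of poly(I:C), a double-stranded RNA mimic that induces interferon, at 10 µg per g at 3 months of age, and RNA was prepared 6 weeks later. The labels give daily injections and the methods 1 every 2 days. *Mx1* is known to respond to interferon in many cell types besides blood cells, and the labels name bone marrow with no sorted population. In such bulk RNA, fewer cells of a type and less RNA per cell cannot be told apart.

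AP-1 is a family of dimeric transcription factors made of basic leucine zipper proteins. JUN proteins pair with each other or with FOS proteins, while FOS proteins need a JUN-type partner, and ATF3 joins the same dimers or acts as a repressor on related sites. The EGR proteins are zinc finger factors that bind GC-rich sites. Most of these genes belong to the immediate early class, whose short-lived transcripts are made within minutes of MAP kinase, calcium, stress or cytokine signals without new protein synthesis. In marrow, JUN, EGR1 and EGR2 are known for their part in monocyte and macrophage differentiation, and ATF3 for its induction by stress and by inflammatory signals.

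The 6 libraries held between 38646101 and 49899650 reads on genes. The mouse gene *Cdx2* had 4, 0 and 0 reads in the *RsCDX2*, *Mx1Cre* and wild-type controls and 152, 155 and 183 in *MxCDX2* mice 1, 2 and 3, in the direction the labels give. The knocked-in *CDX2* is human and the reads were aligned to the mouse genome. Whether the reads on *Cdx2* came from the knockin was not tested. Some features of single mice touch the early response genes and are given with them below. *MxCDX2* mouse 2 had the largest share of reads off annotated genes or ambiguous between them (17.1%), followed by the *Mx1Cre* control (14.3%), the lowest share being 12.2% in the *RsCDX2* control. The summed megakaryocyte markers were highest in the wild-type control, at 265084 normalized counts against 22584 and 32068 in the other controls.

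All 10 genes passed the filter on low counts and were tested among 15980 genes with edgeR's quasi-likelihood test, p-values being adjusted by the Benjamini-Hochberg method. Each log2 fold change is given with its standard error (SE). A gene was called when its log2 fold change (*MxCDX2* minus control) was above 1 or below -1 and its adjusted p was below 0.05. Of the 10 genes, *Jun* and *Atf3* were called, both upregulated. Among all tested genes, 13.6% were called, 4.59% upregulated and 9.03% downregulated. A count of 2 in 10 is near the share of all genes called in either direction. By the adjusted p alone 3 members passed, *Jun* and *Atf3* upward and *Jund* downward, beside 21.7% of all tested genes. In 5 of the 10, *Fosb*, *Jun*, *Jund*, *Egr2* and *Atf3*, the 3 *MxCDX2* mice lay on one side of the 3 controls, beside 42.1% of all tested genes. DESeq2, the tool of the study's methods, called 4 of the 10, with *Fosb* and *Egr2* in addition, beside 16.8% of all tested genes. The p-values rest on the spread between 3 mice per group.

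**Figure D1:**
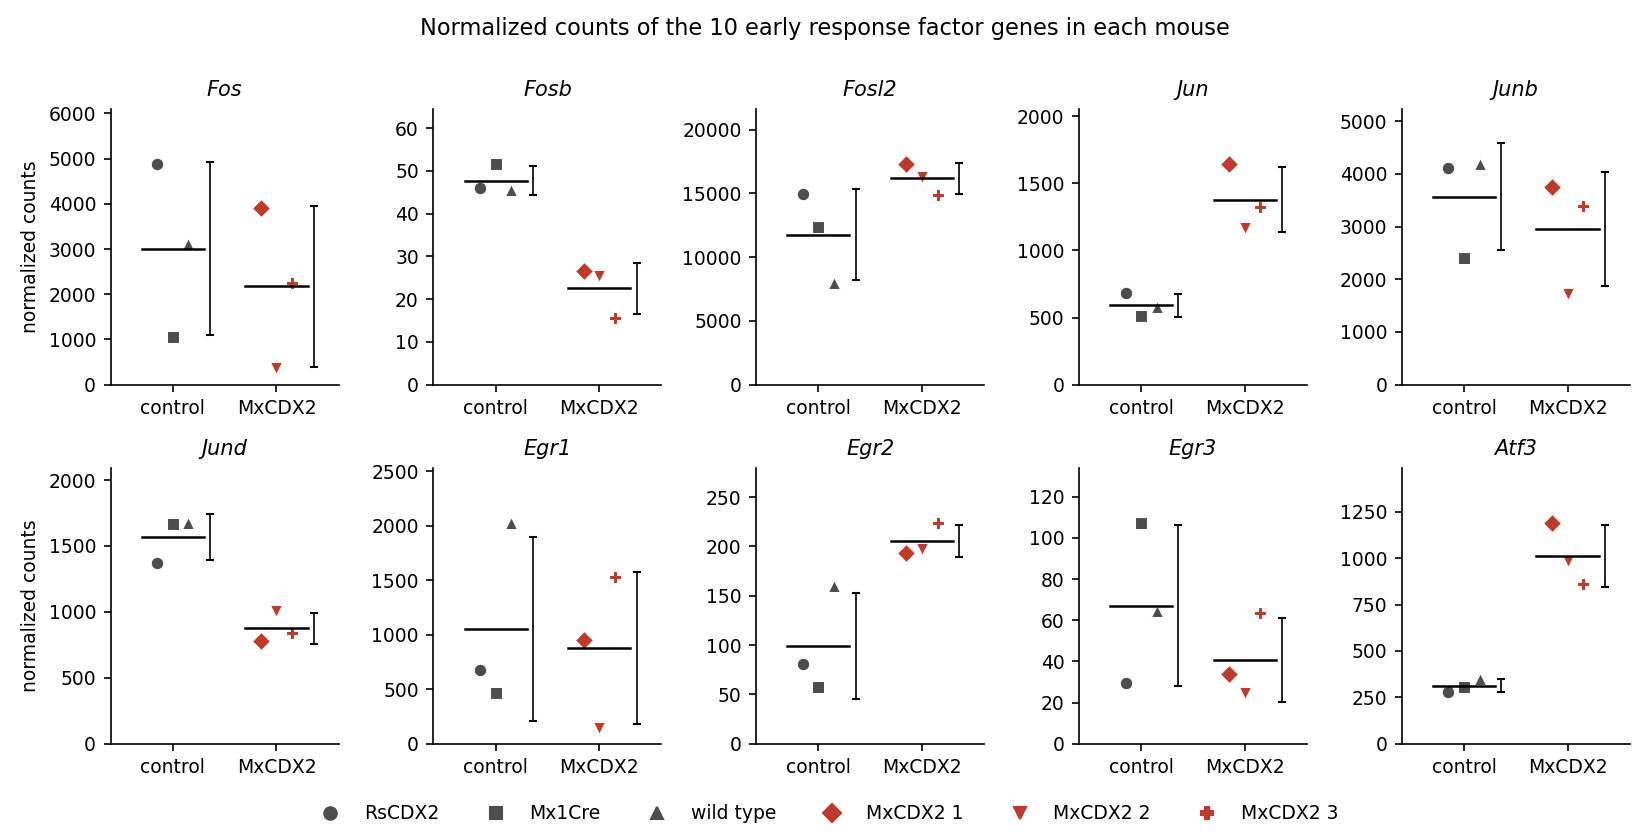
Normalized counts (linear axes from 0) of each gene in each of the 3 control (grey) and 3 MxCDX2 (red) mice, with a symbol for each mouse, a line at the group mean and a bar for ± SD beside it. The groups lie apart for Fosb, Jun, Jund, Egr2 and Atf3, while Fos, Junb and Egr1 are lowest in MxCDX2 mouse 2 and, among controls, in the Mx1Cre mouse.

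Promoters of the members were read from RefSeq (GRCm38.p6), in which 8 of the 10 genes were searched here, with 5 starts for *Egr2*. The 250 bases before the start are shown for *Jun* and *Atf3*, which were called, for *Egr2*, whose groups lay apart, and for *Fos*, one of the members with the widest spread between mice. They lie at chr4:95052223-95052472 (minus strand), chr1:191183334-191183583 (minus strand), chr10:67537619-67537868 (plus strand, the third of the 5 starts) and chr12:85473640-85473889 (plus strand). The *Egr2* window was chosen as the first of the 5 with the most matches, at 3. Its first start had 0 matches and its second 1. The background shares given below are per window and do not allow for that choice. Capitals mark matches to AP-1 and cyclic AMP response element letters and, in *Egr2*, also the CArG box, the site of serum response factor.
Jun: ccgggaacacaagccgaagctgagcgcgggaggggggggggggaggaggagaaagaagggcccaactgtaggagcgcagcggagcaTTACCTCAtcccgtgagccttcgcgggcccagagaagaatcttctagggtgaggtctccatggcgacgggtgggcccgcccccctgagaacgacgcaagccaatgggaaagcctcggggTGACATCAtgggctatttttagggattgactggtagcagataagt
Atf3: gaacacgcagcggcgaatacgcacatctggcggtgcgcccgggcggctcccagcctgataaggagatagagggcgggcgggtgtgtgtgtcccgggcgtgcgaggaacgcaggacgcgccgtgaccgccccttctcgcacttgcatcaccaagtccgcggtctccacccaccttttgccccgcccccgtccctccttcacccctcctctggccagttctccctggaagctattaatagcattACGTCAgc
Egr2: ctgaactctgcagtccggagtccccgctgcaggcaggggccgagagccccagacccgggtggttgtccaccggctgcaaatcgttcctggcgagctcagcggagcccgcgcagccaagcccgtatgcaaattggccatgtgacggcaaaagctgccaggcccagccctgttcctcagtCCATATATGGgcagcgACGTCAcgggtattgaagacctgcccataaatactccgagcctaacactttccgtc
Fos: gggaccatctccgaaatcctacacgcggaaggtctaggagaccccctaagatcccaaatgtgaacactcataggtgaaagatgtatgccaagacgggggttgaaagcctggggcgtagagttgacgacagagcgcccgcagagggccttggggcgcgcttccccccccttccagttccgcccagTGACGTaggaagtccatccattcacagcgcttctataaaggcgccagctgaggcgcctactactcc

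Matches were counted on both strands, and the share of all 32851 RefSeq windows with a match gives the background of each motif. The window of *Jun* held TGACATCA from 45 to 38 bases and TTACCTCA from 164 to 157 bases before the start, the letters of the known pair of AP-1-like sites through which JUN and ATF2 act on the gene. These letters were searched because they are known from *Jun*, so their match in its window is no independent result. They occurred in 2.93% and 0.728% of all windows. TGACGT, the core of the cyclic AMP response element, was found on the other strand of *Atf3*, from 8 to 3 bases before the start, on the other strand of *Egr2*, from 56 to 51 bases before it, and on the plus strand of *Fos*, from 66 to 61 bases before it. That core was in 6.47% of all windows. A CArG box lay from 72 to 63 bases before the shown start of *Egr2* and was in 1.47% of all windows. The window of *Fos* also held TATAAA, the TATA box, from 33 to 28 bases before the start (12.4% of windows). No matches within a window overlapped, and the last 3 windows of *Egr2* share most of their bases.

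The AP-1 site TGANTCA, in 6.75% of all windows, had no match in the windows of the 8 genes. The EGR site GCGNGGGCG (4.7% of windows) matched in *Fosl2* and *Fosb*, from 79 to 71 and from 50 to 42 bases before the start. TTTATG, the core bound by CDX proteins, matched in *Fosb*, from 30 to 25 bases before the start, and in *Egr2*, from 31 to 26 bases before the start shown, and in 10.8% of all windows. It had no match in the windows of *Jun* or *Atf3*, which says only that these letters are not in these 250 bases. The paper searched a longer promoter region with consensus motifs and lists *Jun* among the genes with a CDX site there. *Junb* and *Jund* had no match to any of the 8 motifs. The RefSeq start used for *Jund*, at position 70697739, lies upstream of the GENCODE gene, which begins at 70698949, so its window is not the sequence before the gene whose reads were counted. The window of *Fosl2* lies within an exon of that gene in GENCODE. A match is a description of the sequence and no evidence of binding in these mice.

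**Figure D2:**
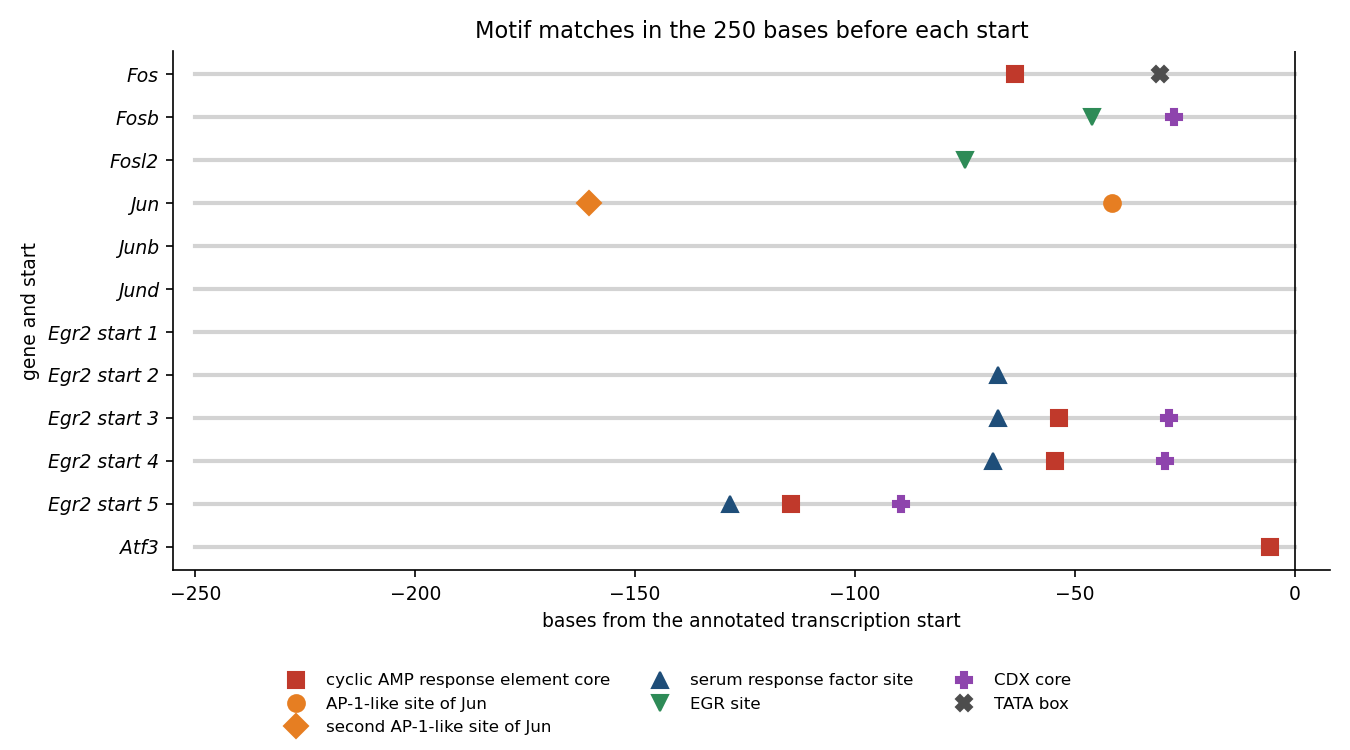
Position (bases from the annotated start, at 0) of each motif match in the 250 bases before the RefSeq starts of 8 genes, with 1 line per start and 1 symbol per motif. Jun carries both of its AP-1-like sites, Atf3, Egr2 and Fos the cyclic AMP response element core, and Fosb and 3 of the 5 Egr2 starts a CDX core.

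The FOS genes encode partners that bind DNA only with a JUN-type protein. *Fos* (ENSMUSG00000021250), on the plus strand at chr12:85473890-85477273 (GRCm38, 4 exon blocks), had 4883, 1051 and 3101 normalized counts in the *RsCDX2*, *Mx1Cre* and wild-type controls and 3917, 356 and 2242 in *MxCDX2* mice 1, 2 and 3. Both groups spanned nearly the same wide range, so that the lowest mouse of each group had a small part of the reads of the highest. On the log2 scale *MxCDX2* mice differed from controls by -0.47 (SE 0.85, adjusted p = 0.733 by edgeR's quasi-likelihood test, Benjamini-Hochberg adjusted). Its sign rested on single mice, since it was 0.0382 without *MxCDX2* mouse 2 and 0.0716 without the *RsCDX2* control.

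*Fosb* (ENSMUSG00000003545, minus strand, chr7:19302696-19310051) encodes the FOS protein known from neurons and was the rarest of the 10 transcripts. It had 46.0, 51.6 and 45.6 normalized counts in the *RsCDX2*, *Mx1Cre* and wild-type controls and 26.5, 25.5 and 15.7 in *MxCDX2* mice 1, 2 and 3. Every *MxCDX2* mouse was below every control, at a log2 fold change of -1.08 (SE 0.33) whose adjusted p of 0.0577 missed the threshold of edgeR's quasi-likelihood test. The adjusted p was 0.045 with DESeq2 and 0.0416 in edgeR when only genes with at least 10 counts in every mouse were tested, so the call depends on the tool and the filter. These values rest on 18 to 52 reads per mouse. *Fosl2* (ENSMUSG00000029135, plus strand, chr5:32135801-32157842) encodes FRA2, a FOS protein without a strong activation domain. Its normalized counts were 14988, 12339 and 7936 in the controls and 17308, 16308 and 14901 in *MxCDX2* mice. Only the *RsCDX2* control reached the level of an *MxCDX2* mouse. The log2 fold change of 0.46 (SE 0.23, adjusted p = 0.201 by edgeR's quasi-likelihood test) did not pass.

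The JUN genes encode the partner that AP-1 dimers with FOS proteins require, and *Jun* and *Jund* differed in opposite directions. *Jun* (ENSMUSG00000052684), a single-exon gene on the minus strand at chr4:95049034-95052222 whose window held TGACATCA and TTACCTCA, encodes the strongest activator of the family. It had 684, 512 and 575 normalized counts in the *RsCDX2*, *Mx1Cre* and wild-type controls and 1645, 1167 and 1328 in *MxCDX2* mice 1, 2 and 3. All 3 *MxCDX2* mice exceeded all controls, and the lowest of them was well above the highest control. Controls averaged 590.4 ± 86.6 (SD, n = 3) and *MxCDX2* mice 1379.8 ± 243 (SD, n = 3). This 2.34-fold rise was 1.22 on the log2 scale (SE 0.19, adjusted p = 0.00651 by edgeR's quasi-likelihood test, Benjamini-Hochberg adjusted). The call was made in all 6 fits that left out 1 mouse, with log2 fold changes from 1.08 to 1.36. Tested against a log2 fold change of 1, *Jun* had an adjusted p of 0.372, so the rise was not shown to exceed that size. In GENCODE, 232 exon bases of *Jun* lie opposite the antisense gene *Junos*, which had 141 to 243 reads in controls and 101 to 151 in *MxCDX2* mice. The strand setting of the counting is not stated, and the part of these opposite reads in the count of *Jun* was not tested.

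*Jund* (ENSMUSG00000071076, single exon, plus strand, chr8:70698949-70700616) encodes the JUN protein best known from resting cells, which lacks a strong early response. It had 1369.9, 1663 and 1674 normalized counts in the *RsCDX2*, *Mx1Cre* and wild-type controls and 776, 1005 and 842 in *MxCDX2* mice 1, 2 and 3. Every *MxCDX2* mouse was below every control, in the direction opposite to *Jun*. The log2 fold change was -0.84 (SE 0.15) and the adjusted p of edgeR's quasi-likelihood test was 0.0118, below 0.05 although the size stayed under the fold threshold. Without *MxCDX2* mouse 3 the adjusted p was 0.0602 at a log2 fold change of -0.81. *Junb* (ENSMUSG00000052837, minus strand, chr8:84974484-84978718) encodes a JUN protein that restrains growth of myeloid progenitors. Its normalized counts were 4116, 2402 and 4187 in the controls and 3749, 1719 and 3392 in *MxCDX2* mice. The groups overlapped, and as for *Fos* the *Mx1Cre* control and *MxCDX2* mouse 2 were the lowest of their groups. It differed by -0.27 on the log2 scale (SE 0.34, adjusted p = 0.609 by edgeR's quasi-likelihood test), and by 0.00624 without *MxCDX2* mouse 2. *Junb* shares 173 exon bases with *Prdx2* on the other strand, an abundant erythroid peroxiredoxin gene with 22029 to 31025 reads in controls and 2938 to 7206 in *MxCDX2* mice. Whether reads of *Prdx2* entered the count of *Junb* was not tested.

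The EGR genes varied widely between mice. *Egr1* (ENSMUSG00000038418), on chromosome 18, had 673 and 466 normalized counts in the *RsCDX2* and *Mx1Cre* controls and 2023 in the wild-type control. The *MxCDX2* mice had 952, 146 and 1530.4. Each group averaged about as much as its own spread, 1054 ± 846 (SD, n = 3) in controls and 876 ± 695 (SD, n = 3) in *MxCDX2* mice. The difference was -0.27 on the log2 scale (SE 0.86, adjusted p = 0.856 by edgeR's quasi-likelihood test). It was 0.24 without *MxCDX2* mouse 2 and 0.63 without the wild-type control, so no direction can be read from it.

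*Egr2* (ENSMUSG00000037868, plus strand, chr10:67535475-67542188) encodes the EGR factor that acts beside EGR1 in macrophage development. It had 80.5, 57.6 and 159.5 normalized counts in the *RsCDX2*, *Mx1Cre* and wild-type controls and 194, 198 and 224 in *MxCDX2* mice 1, 2 and 3. All *MxCDX2* mice were above all controls, and the wild-type control lay nearest to them. The difference was 1.04 on the log2 scale (SE 0.40, adjusted p = 0.112 by edgeR's quasi-likelihood test). Without the wild-type control it was 1.59 with an adjusted p of 0.0105, and DESeq2 on all 6 mice gave an adjusted p of 0.0467. The wild-type control was also the one with the highest megakaryocyte and stromal marker sums, and the part of these cells in its *Egr2* count was not tested. *Egr3* (ENSMUSG00000033730, plus strand, chr14:70077203-70082614), an EGR gene known from lymphocytes and muscle spindles, had 29.4, 107 and 64.7 normalized counts in the controls and 33.9, 24.5 and 63.5 in *MxCDX2* mice. The groups overlapped, at a log2 fold change of -0.72 (SE 0.57, adjusted p = 0.412). *Egr4*, the remaining paralogue, had 0 to 2 reads per mouse and was not tested.

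*Atf3* (ENSMUSG00000026628, minus strand, chr1:191170296-191218039, 5 exon blocks) encodes a stress-induced basic leucine zipper factor and had the largest rise of the 10. Its normalized counts were 279, 308 and 348 in the *RsCDX2*, *Mx1Cre* and wild-type controls and 1189.6, 987 and 862 in *MxCDX2* mice 1, 2 and 3. The lowest *MxCDX2* mouse had more reads than any control by a margin larger than the spread of either group. Controls averaged 312 ± 35.0 (SD, n = 3) and *MxCDX2* mice 1013 ± 166 (SD, n = 3). This 3.25-fold rise was 1.70 on the log2 scale (SE 0.19, adjusted p = 0.00253 by edgeR's quasi-likelihood test, Benjamini-Hochberg adjusted). Of the 10 genes only *Atf3* passed when edgeR tested against a log2 fold change of 1 (adjusted p = 0.0312). The call held in all 6 fits that left out 1 mouse, with log2 fold changes from 1.57 to 1.81. The window shown for *Atf3* starts from a RefSeq start inside the GENCODE gene, and its last 7 bases lie in a GENCODE exon of *Atf3*. *Atf4* encodes the factor that induces *Atf3* in the integrated stress response, and it differed by -0.34 on the log2 scale (adjusted p = 0.243). *Ddit3*, a further gene of that response, differed by -0.43 (adjusted p = 0.159, edgeR's quasi-likelihood test). For both of these genes the groups overlapped. *Atf5*, a further ATF family gene, was higher in every *MxCDX2* mouse than in any control. Its log2 fold change was 0.59 (adjusted p = 0.0283, edgeR's quasi-likelihood test). These are RNA values, and the part of the integrated stress response in the *Atf3* count was not tested.

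**Figure D3:**
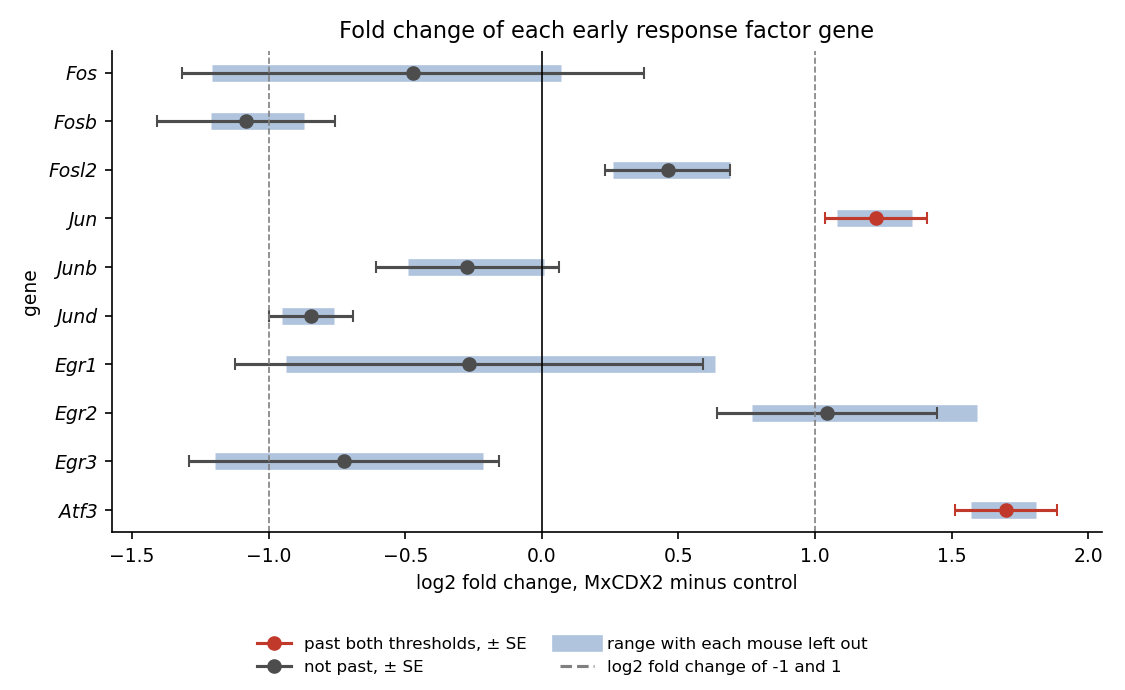
Log2 fold change (MxCDX2 minus control) of each gene as a point with ± its standard error, over the range of values from fits without 1 mouse (blue bar), with dashed lines at -1 and 1. Jun and Atf3 (red) stay above 1 in every such fit, while the ranges of Fos, Junb and Egr1 reach across 0.

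The exact permutation test over 3 against 3 mice cannot give a two-sided p below 0.10, and that value was reached by *Fosb*, *Jun*, *Jund*, *Egr2* and *Atf3*. For the other 5 genes the exact permutation test gave two-sided p-values from 0.20 (*Fosl2*) to 0.70 (*Fos* and *Egr1*). With scaling by total counts alone, without TMM, the median log2 fold change of all tested genes was 0.12, and *Jun* and *Atf3* had log2 fold changes of 1.34 and 1.81.

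For levels that can be compared between genes, RPKM values were computed from exon length and TMM-adjusted library size. In controls the RPKM of *Junb* was highest (34.1 ± 9.66, SD, n = 3), followed in RPKM by *Fos* (28.2 ± 17.9), *Fosl2* (26.7 ± 8.09) and *Jund* (20.7 ± 2.27), whose ranges overlapped from one to the next. *Egr1* (5.17 ± 4.15) came next, below *Jund* in every control though its range met that of *Fos*, then *Jun* (4.07 ± 0.60) and *Atf3* (3.18 ± 0.36), and, apart from *Atf3*, *Egr2* (0.64 ± 0.35), *Egr3* (0.34 ± 0.19) and *Fosb* (0.17 ± 0.01). In *MxCDX2* mice *Fosl2* had the highest mean RPKM (36.7 ± 2.75, SD, n = 3), though its range overlapped that of *Junb* (28.2 ± 10.4), and *Fos* came next (20.3 ± 16.7). *Jund* (11.5 ± 1.55), *Atf3* (10.3 ± 1.69) and *Jun* (9.52 ± 1.68) then lay within overlapping ranges of each other, above *Egr1* (4.30 ± 3.41). *Egr2* (1.33 ± 0.10), *Egr3* (0.20 ± 0.10) and *Fosb* (0.079 ± 0.021) followed in RPKM with ranges apart from one to the next. So *Atf3* and *Jun* were below *Jund* in every control, while in *MxCDX2* mice their ranges met.

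Within a family, the same reads per kilobase give the share of each gene in the RNA of its family. *Jun* supplied 7.59%, 7.30% and 6.01% of JUN family reads in the *RsCDX2*, *Mx1Cre* and wild-type controls and 19.8%, 21.3% and 17.4% in *MxCDX2* mice 1, 2 and 3. All *MxCDX2* shares were above all control shares, a difference of 12.5 percentage points between the means (two-sided exact permutation p = 0.10, the least that 3 against 3 mice allow). The share of *Jund* was 29.1%, 45.3% and 33.4% in controls and 17.8%, 35.1% and 21.1% in *MxCDX2* mice, in overlapping ranges (two-sided exact permutation p = 0.30), and that of *Junb* differed by -1.28 percentage points. The summed level of the family was 58.9 ± 9.26 (SD, n = 3) in controls and 49.3 ± 10.3 (SD, n = 3) in *MxCDX2* mice. These totals overlapped (two-sided exact permutation p = 0.30), unlike the shares of *Jun*.

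In the EGR family *Egr2* made up 13.1%, 11.7% and 9.16% of the reads per kilobase in the controls and 20.6%, 60.4% and 15.6% in *MxCDX2* mice. Its share was higher in every *MxCDX2* mouse than in any control (two-sided exact permutation p = 0.10), and the value of *MxCDX2* mouse 2 went with its low *Egr1* count. In the FOS family, *Fosl2* supplied 42.6%, 73.7% and 38.2% in controls and 51.7%, 91.6% and 61.7% in *MxCDX2* mice. These ranges overlapped, and the highest share of each group was in the mouse with the lowest *Fos* (two-sided exact permutation p = 0.40).

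**Figure D4:**
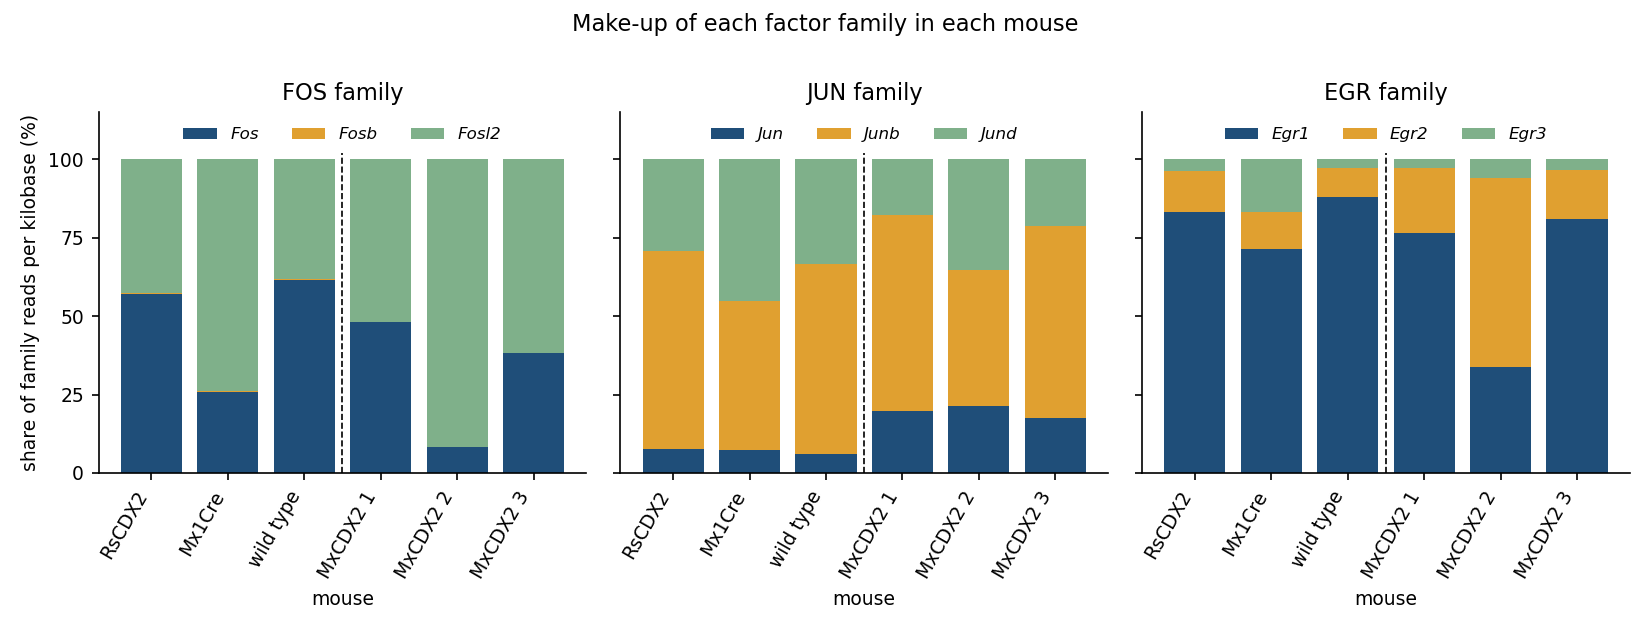
Share (%) of each gene in the reads per kilobase of its family, for the FOS, JUN and EGR genes, as stacked bars for the 3 control mice (left of the dashed line) and the 3 MxCDX2 mice. The Jun segment is 6.01% to 7.59% in controls and 17.4% to 21.3% in MxCDX2 mice, while the Fos and Egr1 segments are smallest in MxCDX2 mouse 2.

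The members fell apart by how much mice of 1 group differed. edgeR's biological coefficient of variation was 69.1% for *Fos* and 70.6% for *Egr1*, larger than in 97.3% and 97.5% of the tested genes, and 50.2% for *Egr3*. For *Jun* it was 21.7%, for *Atf3* 22.6%, for *Jund* 19.3% and for *Fosl2* 21.8%, near the median of 24.8% over all tested genes. *Junb* (30.4%), *Fosb* (29.2%) and *Egr2* (38.7%) lay between. The standard errors of the log2 fold changes of *Fos* and *Egr1*, 0.85 and 0.86, compare with 0.19 for *Jun* and *Atf3*.

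*Fos*, *Junb* and *Egr1* had their lowest *MxCDX2* value in mouse 2 and their lowest control value in the *Mx1Cre* mouse. The same order appeared in several other immediate early and feedback genes. *Dusp1*, which encodes a MAP kinase phosphatase, had 10227, 3113 and 4915 normalized counts in the *RsCDX2*, *Mx1Cre* and wild-type controls and 3517, 606 and 3309 in *MxCDX2* mice 1, 2 and 3. *Socs3*, an inhibitor of cytokine signalling, had 3340.4, 756 and 1575 in controls and 4691, 858 and 3400.2 in *MxCDX2* mice. *Ccn1*, an early gene of stromal and endothelial cells, had 286, 33.8 and 1042 in controls and 117, 8.82 and 184 in *MxCDX2* mice. These 3 genes were picked after their values were seen. Over the whole lists, *MxCDX2* mouse 2 was the lowest of its group in 31 of 46 other immediate early and feedback genes (67.4%), in 5 of the 10 members and in 11 of 12 heat shock genes, beside 42.2% of all tested genes. The lowest control was not counted over the lists, so for the *Mx1Cre* control the order rests on the genes named. The 2 mice are those with the highest shares of reads off genes, 14.3% in the *Mx1Cre* control and 17.1% in *MxCDX2* mouse 2. *Hspa1b*, a heat shock gene, was in turn highest in *MxCDX2* mouse 1 (1148 normalized counts) and 37.2 to 304 in the other 5 mice. The sum of the 12 heat shock genes was also highest in that mouse. It was 286161 normalized counts there and 147151 to 187259 in the other 5 mice. *Jun* and *Atf3* had their highest values in the same mouse, and any link to the heat shock genes was not tested. The part of the off-gene share in these values was not tested. Without *MxCDX2* mouse 2, *Jun* and *Atf3* had log2 fold changes of 1.34 and 1.72 and were still called (adjusted p = 0.0145 and 0.0115, edgeR's quasi-likelihood test).

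**Figure D5:**
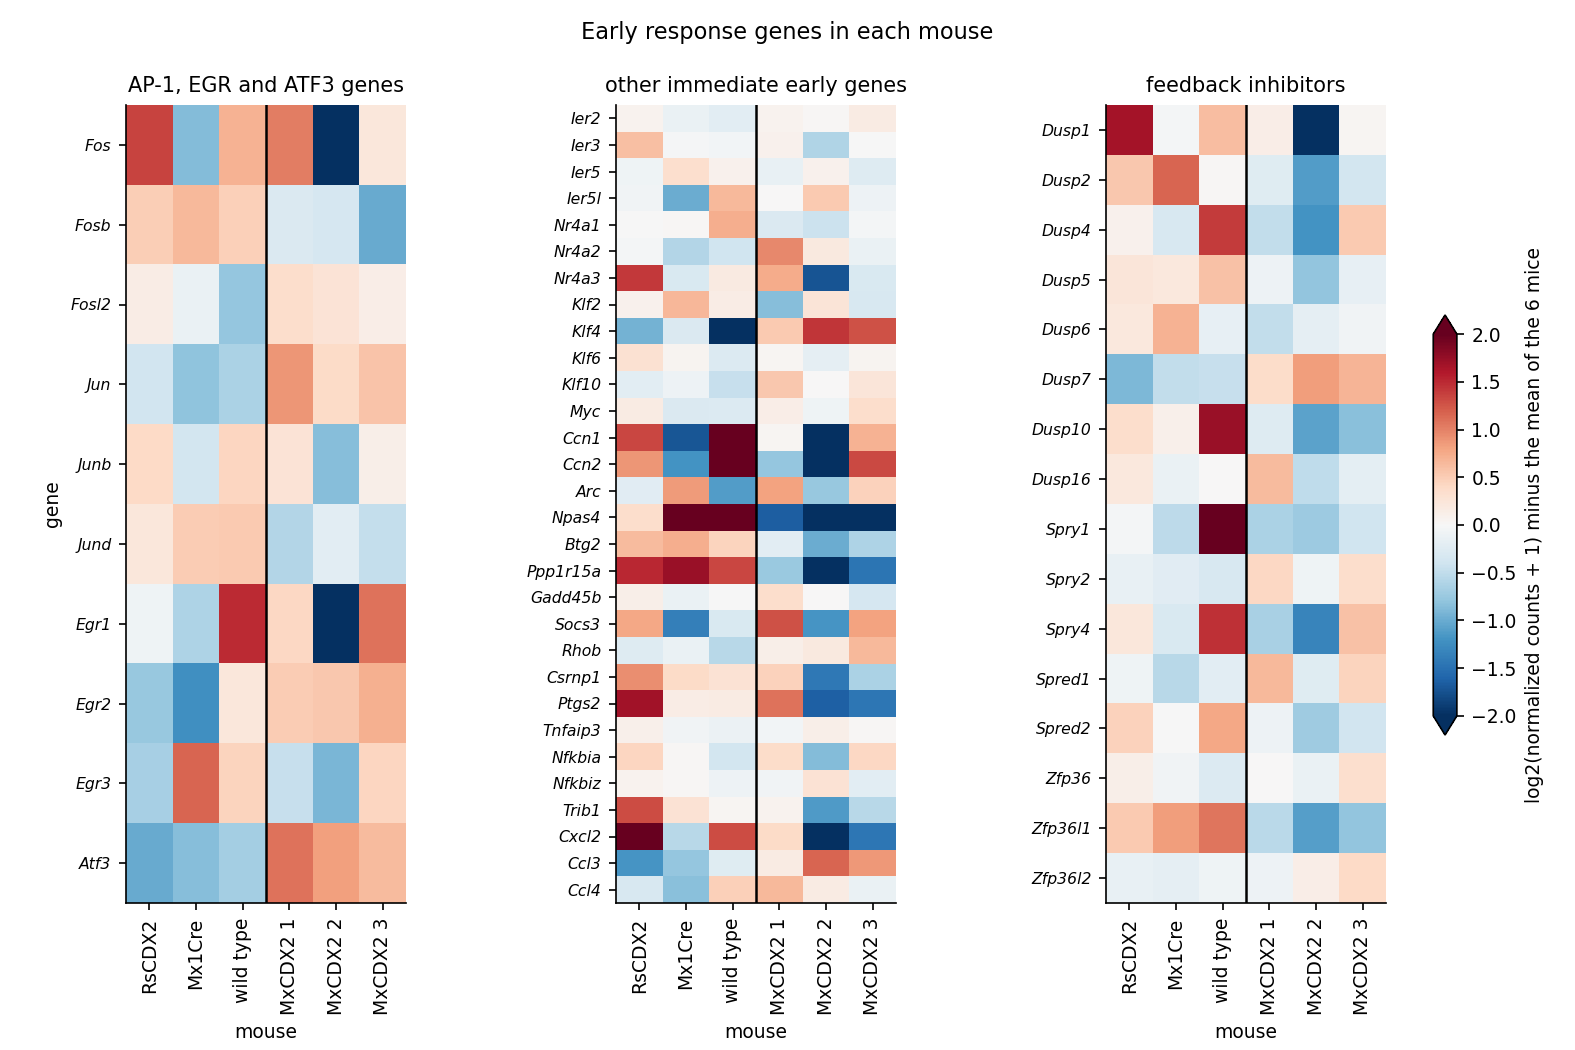
Colours give log2(normalized counts + 1) of each gene minus its mean over the 6 mice (colours saturate at -2 and 2), for the 10 factor genes, the 30 other immediate early genes and the 16 feedback inhibitors, with control mice left and MxCDX2 mice right of the black line. MxCDX2 mouse 2 is the lowest of its group in 31 of the 46 genes of the other lists, and of its group for Jun too, while all 3 MxCDX2 mice are above all controls for Jun and Atf3.

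Over the 6 mice, the genes with the pattern nearest to *Jun* among the 11981 genes whose mean normalized count reached 100 were *Pdxk*, *Pycard* and *Gm8995*. Likeness was the mean absolute difference of centred log2 library-scaled counts, which was 0.0634 for *Pdxk*, 0.0756 for *Pycard* and 0.0947 for *Gm8995*. *Pycard*, which encodes the inflammasome adaptor ASC, had 2638, 2142 and 2379 normalized counts in controls and 5838, 4763 and 5656 in *MxCDX2* mice. Nearest to *Atf3* were *Tespa1* (0.120), *Cds1* (0.134) and *Fut7* (0.135), of which *Fut7*, a fucosyltransferase gene of selectin ligands, had 836, 982 and 976 in controls and 2612, 2535 and 2324 in *MxCDX2* mice. *Jun* and *Atf3* differed from each other by 0.236, less than either did from any of the other 8 members. For *Fos*, chosen after its values were seen, the nearest genes were the immunoglobulin segments *Ighv9-2* (0.138), *Igkv3-10* (0.204) and *Ighv1-19* (0.226), and *Egr1* was farther from it (0.686). These likenesses rest on 6 mice of 2 groups and describe these libraries only.

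The wider pathway was described with lists of its genes. Among 25 other basic leucine zipper partners of the AP-1 and ATF families, 2 were called, both upward, beside 4.59% of all tested genes. By the adjusted p alone 7 passed, these 2 and 5 more (3 up, 2 down), beside 21.7% of all tested genes. The median log2 fold change was -0.19 against 0.00 over all tested genes. *Atf7*, a close relative of ATF2, had 2967, 3553 and 2526 normalized counts in controls and 6844, 6618 and 6460.1 in *MxCDX2* mice. All *MxCDX2* mice were above all controls, by 1.14 on the log2 scale (SE 0.14, adjusted p = 0.00329, edgeR's quasi-likelihood test), and the gene was called with any 1 mouse left out. *Batf2*, an interferon-induced partner of JUN proteins, had 33.2, 29.8 and 103 in controls and 516, 238 and 158 in *MxCDX2* mice. It rose by 2.45 on the log2 scale (SE 0.66, adjusted p = 0.0417, edgeR's quasi-likelihood test) and kept its call in 1 of 6 leave-one-out fits, which gave 1.83 to 3.28. Without *MxCDX2* mouse 1 or mouse 3, 1 of the 25 genes was called. The EGR corepressor genes *Nab1* and *Nab2* had log2 fold changes of -0.14 and 0.25 and were not called.

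Upstream, edgeR called 0 of 26 genes of the RAS, MAP kinase and SRF or ELK route, with a median log2 fold change of 0.02, as did DESeq2 and limma voom. Among all tested genes edgeR called 13.6%. By the adjusted p alone 4 of the 26 passed (3 up, 1 down), beside 21.7% of all tested genes. In 14 the groups lay apart, beside 42.1% of all tested genes, and 10 had an unadjusted p below 0.05. Without *MxCDX2* mouse 1, 1 of the 26 was called. Of 16 feedback inhibitors, 1 was called upward and 1 downward, beside 4.59% and 9.03% of all tested genes, at a median log2 fold change of -0.74. *Dusp7*, a phosphatase of ERK, had 965, 1276 and 1304 normalized counts in controls and 2324, 3208 and 2874 in *MxCDX2* mice (log2 fold change 1.25, SE 0.18, adjusted p = 0.00508, edgeR's quasi-likelihood test). *Zfp36l1*, whose product speeds the decay of AU-rich early response transcripts, had 937, 1159.8 and 1367 in controls and 448, 304 and 375 in *MxCDX2* mice (log2 fold change -1.62, SE 0.22, adjusted p = 0.00437, edgeR's quasi-likelihood test). Both were called with any 1 mouse left out, and in each the groups lay apart. Without the *Mx1Cre* control 4 of the 16 feedback genes were called.

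Of 30 other immediate early genes, 2 were called upward and 3 downward, beside 4.59% and 9.03% of all tested genes, with a median log2 fold change of -0.03. *Ppp1r15a* encodes GADD34, the phosphatase subunit that ends the integrated stress response. It had 11502, 13382 and 10192 normalized counts in controls and 2427, 779.8 and 1469 in *MxCDX2* mice. The gene fell by 2.91 on the log2 scale (SE 0.40, adjusted p = 0.00477, edgeR's quasi-likelihood test). *Npas4* had 24.3, 243 and 386 in controls and 5.30, 2.94 and 0 in *MxCDX2* mice, so that its fitted value of -6.31 on the log2 scale (SE 1.30, adjusted p = 0.0175, edgeR's quasi-likelihood test) rested on 0 to 5 reads in the *MxCDX2* mice. It kept its call in 4 of 6 leave-one-out fits, with values from -7.16 to -5.60. *Btg2*, an antiproliferative early gene, fell by 1.18 on the log2 scale (SE 0.21, adjusted p = 0.0106, edgeR's quasi-likelihood test). *Klf4*, a Krüppel-like factor of monocytes, and *Ccl3*, which encodes a macrophage chemokine, had log2 fold changes of 2.05 and 1.48, and kept their calls in 3 and 2 of 6 leave-one-out fits. The number called was 3 without the *RsCDX2* control, 2 without *MxCDX2* mouse 2 and 1 without *MxCDX2* mouse 3. The other 25 of the 30 were not called.

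Among 20 genes with well-known AP-1 or EGR sites, 4 were called, all downward, beside 9.03% of all tested genes called downward, at a median log2 fold change of -0.61. *Mmp9*, which encodes a gelatinase of neutrophil granules, had 63864, 95103 and 72005 normalized counts in controls and 19164, 38858 and 22908 in *MxCDX2* mice (log2 fold change -1.51, SE 0.31, adjusted p = 0.0172, edgeR's quasi-likelihood test). *Ccnd1*, the cyclin D1 gene, had 914, 1087 and 1362 in controls and 519, 221 and 304 in *MxCDX2* mice (log2 fold change -1.69, SE 0.34, adjusted p = 0.0161, edgeR's quasi-likelihood test). *Hmox1*, the heme oxygenase gene, and *Pdgfa*, a growth factor gene, kept their calls in 1 and 3 of 6 leave-one-out fits and differed by -0.96 and -1.85 on the log2 scale without the wild-type control, against -1.52 and -2.88 with it. Without *MxCDX2* mouse 3, edgeR kept 0 of these 4 calls. DESeq2 on all mice called 7 of the 20, beside 16.8% of all tested genes. Of 12 heat shock genes 0 were called by edgeR, DESeq2 or limma voom, beside 13.6% of all tested genes called by edgeR. Of the 12, 1 had an unadjusted p below 0.05 and 1 was called by edgeR without the wild-type control.

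Markers of several cell types moved between the groups beside the members. Of 10 monocyte and macrophage markers, 5 were called upward (*Csf1r*, *Ccr2*, *Ly6c2*, *Ms4a6c* and *F13a1*), and their summed normalized counts were 52787 to 84067 in controls and 295321 to 344739 in *MxCDX2* mice. *Cx3cr1*, *Cd14* and *Fcgr1*, with log2 fold changes of 0.10, 0.21 and 0.08, were not called. Of 10 mature neutrophil markers 7 were called downward, of 10 erythroid markers all 10 and of 10 B-cell markers 5, the erythroid sum being 1538275 to 1888772 in controls and 46055 to 178328 in *MxCDX2* mice. Of 6 megakaryocyte markers 3 were called downward, of 10 stromal markers 3 and of 10 T and NK cell markers 2. Of 6 early neutrophil markers 2 were called upward. These counts stand beside 4.59% of all tested genes called upward and 9.03% called downward. *Jun*, *Atf3* and, without its call, *Egr2* lay on the same side as the monocyte markers in every mouse. The part of the cell make-up in the values of the 10 genes was not tested.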

How the data were processed

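Bone marrow RNA of 3 *MxCDX2* and 3 control mice was sequenced from TruSeq stranded mRNA libraries, 1 per mouse. The authors deposited raw read counts per Ensembl gene, without normalization. Per the submitters' processing notes, reads were demultiplexed with bcl2fastq (v2.17.1.14), aligned to GRCm38 with STAR (v2.5) and counted with HTSeq (v0.6.1), whose strand setting is not given in the sources used here. Reads off genes or ambiguous (12.2% to 17.1%) were left out. Gene names, exon lengths and overlaps came from GENCODE M21. Counts were normalized by TMM (normalized counts are scaled to the mean adjusted library), filtered with filterByExpr and tested with edgeR (v4.0.16), thresholds being a log2 fold change beyond 1 or -1 and an adjusted p below 0.05. Standard errors came from the quasi-likelihood F statistic. DESeq2 (v1.42.0), limma voom (v3.58.1), other normalizations, filters and thresholds, and leaving out each mouse were alternatives. The scripts were tested on simulated data. Family shares were compared by exact permutation tests. The text names all 10 genes, *Cdx2*, up to 5 called genes of each pathway list with the largest log2 fold changes, and for each called member the 3 genes most like it. Other genes were named after their values were seen. The members and lists were chosen with earlier results of these data known.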

Additional observations from a re-analysis of the deposited data

How the results depend on the processing

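The number of the 10 genes called was 2 with the edgeR test, 4 with DESeq2 and 1 in the test against a log2 fold change of 1. Over all genes the 2177 calls became 1043 at an adjusted p below 0.01, 611 against a log2 fold change of 1 and 3471 with no fold threshold. They ranged from 1205 to 2406 when 1 mouse was left out, the lowest being without *MxCDX2* mouse 3. The 13 calls in the 7 pathway lists became 23 with DESeq2, 4 at an adjusted p below 0.01, 1 against a log2 fold change of 1, 24 with no fold threshold, and 4 (without *MxCDX2* mouse 3) to 15 with 1 mouse left out. The rise in the *Jun* share of JUN reads was 16.4 percentage points when reads were not scaled by gene length, against 12.5. With 1 mouse left out the log2 fold change ranged from -1.21 to 0.0716 for *Fos*, positive without the *RsCDX2* control (0.0716) or *MxCDX2* mouse 2 (0.0382), from -0.49 to 0.00624 for *Junb*, positive without *MxCDX2* mouse 2, and from -0.94 to 0.63 for *Egr1*, positive without the wild-type control (0.63) or *MxCDX2* mouse 2 (0.24). The cause was not tested. *Atf3* was called under all 17 alternatives and *Jun* under 16. No paired analysis was possible because the labels number only the *MxCDX2* mice. At 3 mice per group, the wide spread of *Fos*, *Egr1* and *Egr3* limits what could be called. Changes near 2-fold could be missed in the other genes too. Counts were simulated with the dispersion common to all genes and with 200 genes changed. In them edgeR recovered 15 of 93 genes changed 2-fold, at an adjusted p below 0.05. It recovered 94 of 100 genes changed 4-fold. The adjustment is stricter when few genes change, and in the real data 3471 genes passed an adjusted p below 0.05. The simulated recovery is therefore not the rate in these data.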
